A study of Rattus norvegicus with 30 samples.

Results

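Clade A serpins are a family of plasma proteins that the liver secretes, and 7 of their genes were followed here in rat hepatocyte cultures: Serpina6, Serpina7, Serpina1, Serpina3c, Serpina3n, Serpina4 and Serpina10. The 7 genes were chosen by symbol, and every probe set that the platform annotation gives to one of them was taken. The 31099 probe sets of the table held 7 such probe sets, 1 per gene. All 7 genes passed the filter on low signal and were among the 11503 genes tested. The set was proposed as clade A serpins that fall as the cultures age, with the vehicle values at 24 and 48 h in view. Those values went with this description for 5 of the 7 genes: the Serpina1 arrays of the 2 times overlapped, and Serpina7 was higher at 48 h. The 48 h against 24 h values in vehicle are therefore given as a description, with no test. The treated cultures share no array with that contrast, but earlier results of these data were known when the set was chosen, so the tests on them are not independent evidence of its direction.

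The cultures came from frozen primary hepatocytes of male Sprague Dawley rats, thawed, plated on collagen and overlaid with Matrigel. On day 3 of culture they received chlorpromazine HCl, an antipsychotic of the phenothiazine class, at 0.8 or 20 µM, or the vehicle, for which the labels give 1% DMSO, and RNA was taken 24 or 48 h later. The 6 groups (vehicle, 0.8 µM and 20 µM at each time) held 5 arrays each, and every group shared the thawing, the Matrigel overlay and the medium. Each array measured 1 separate well, and no separate animals are named, so p-values measure the spread between cultures. Vehicle replicate 2 at 24 h carries a title that gives 2 h and a time entry of 24 h, and was grouped by the entry.

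Serpins are single-domain proteins with an exposed reactive loop. In an inhibitory serpin a target protease cuts this loop, and the serpin then folds over and traps the enzyme in a dead complex. Some clade A members do not inhibit proteases and instead carry hormones in blood: corticosteroid-binding globulin carries cortisol and corticosterone, and thyroxine-binding globulin carries thyroid hormone. The liver makes nearly all of these proteins, and several of the genes respond to glucocorticoids, growth hormone or inflammatory cytokines.

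Of the 7 genes, 6 lie on one rat chromosome and Serpina7 lies on another. In the RefSeq gene table Serpina10 and Serpina6 were direct neighbours, and Serpina3l lay between Serpina3c and Serpina3n. The 250 bases before the transcript start were available for 4 of the 7 members. Those of Serpina3n, Serpina4 and Serpina7 are shown because these genes differed in how they changed, and that of Serpina3l because its signal followed Serpina3c most closely. All are from RefSeq, build GRCr8, written 5′ to 3′ on the gene's strand, with motif matches in capitals.
Serpina3n: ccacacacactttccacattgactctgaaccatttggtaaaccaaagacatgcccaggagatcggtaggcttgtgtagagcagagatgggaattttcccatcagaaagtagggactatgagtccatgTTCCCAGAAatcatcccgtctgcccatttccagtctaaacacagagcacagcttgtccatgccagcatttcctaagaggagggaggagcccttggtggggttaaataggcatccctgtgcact
Serpina3l: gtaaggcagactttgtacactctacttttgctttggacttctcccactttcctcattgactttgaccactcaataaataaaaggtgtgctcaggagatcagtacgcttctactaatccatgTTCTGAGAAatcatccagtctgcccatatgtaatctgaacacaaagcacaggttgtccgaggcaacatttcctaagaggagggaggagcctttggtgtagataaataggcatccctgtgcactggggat
Serpina4: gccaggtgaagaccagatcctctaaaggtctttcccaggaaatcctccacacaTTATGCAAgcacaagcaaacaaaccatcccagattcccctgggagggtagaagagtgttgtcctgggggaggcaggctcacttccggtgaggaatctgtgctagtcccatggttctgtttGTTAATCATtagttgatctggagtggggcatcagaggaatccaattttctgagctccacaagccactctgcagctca
Serpina7: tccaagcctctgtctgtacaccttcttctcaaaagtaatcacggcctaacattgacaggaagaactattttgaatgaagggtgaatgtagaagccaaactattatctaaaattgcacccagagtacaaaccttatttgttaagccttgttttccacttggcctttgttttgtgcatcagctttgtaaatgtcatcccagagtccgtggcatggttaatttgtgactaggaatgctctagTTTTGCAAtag
These windows lie at chr6:129088142-129088391 on the plus strand for Serpina3n, chr6:129062956-129063205 on the plus strand for Serpina3l, chr6:128764532-128764781 on the plus strand for Serpina4, and chrX:107457682-107457931 on the minus strand for Serpina7. Both strands were searched for 4 motifs: the HNF1 motif GTTAATNAT, the STAT motif TTCNNNGAA, the C/EBP motif TTGCNNAA and the TATA motif TATAAA. Serpina4 held GTTAATCAT at -77 to -69 from the transcript start, a motif present in 0.666% of 33469 promoters of the same length. Serpina4 also held a C/EBP match, written TTATGCAA on this strand, at -197 to -190, and Serpina7 held one, TTTTGCAA, at -11 to -4; that motif is in 9.22% of promoters. The STAT motif, in 7.67% of promoters, was matched by TTCCCAGAA at -123 to -115 in Serpina3n and by TTCTGAGAA at -129 to -121 in Serpina3l. The TATA motif, in 12.9% of promoters, was not matched in the windows shown, and no 2 matches overlapped. The windows of Serpina1, the other member with one, and of Serpina3m, a relative of Serpina3n, were searched too. Neither held a match to any of the 4 motifs. The windows of Serpina3n and Serpina3l were identical at 173 of 261 aligned columns, or 66.3%. The share was 74.1% for Serpina3n and Serpina3m and 49.8% for Serpina3n and Serpina4. A match describes the letters only, and binding was not measured.

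The values are MAS5 signals, the linear brightness of a probe set after scaling of each array. Tests ran on log2 signals floored at 16, with limma over all 30 arrays. The p-values were adjusted by the Benjamini-Hochberg method over the 11503 genes of each comparison, and a gene rose or fell where the adjusted p was under 0.05. Signals of different probe sets are not compared with each other. After scaling each array had the same trimmed mean signal, 1499.94, so this value says nothing about the quality of an array. Medians ran from 380 to 449. The hepatocyte markers had 7 measured genes, with summed signals between 336909 and 524568. In every group the mean signal of each was not below the 40th percentile of the arrays, averaged over the group. Each value is a level per unit of RNA in bulk cultures, so fewer cells of a type and less RNA per cell cannot be told apart.

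**Figure D1:**
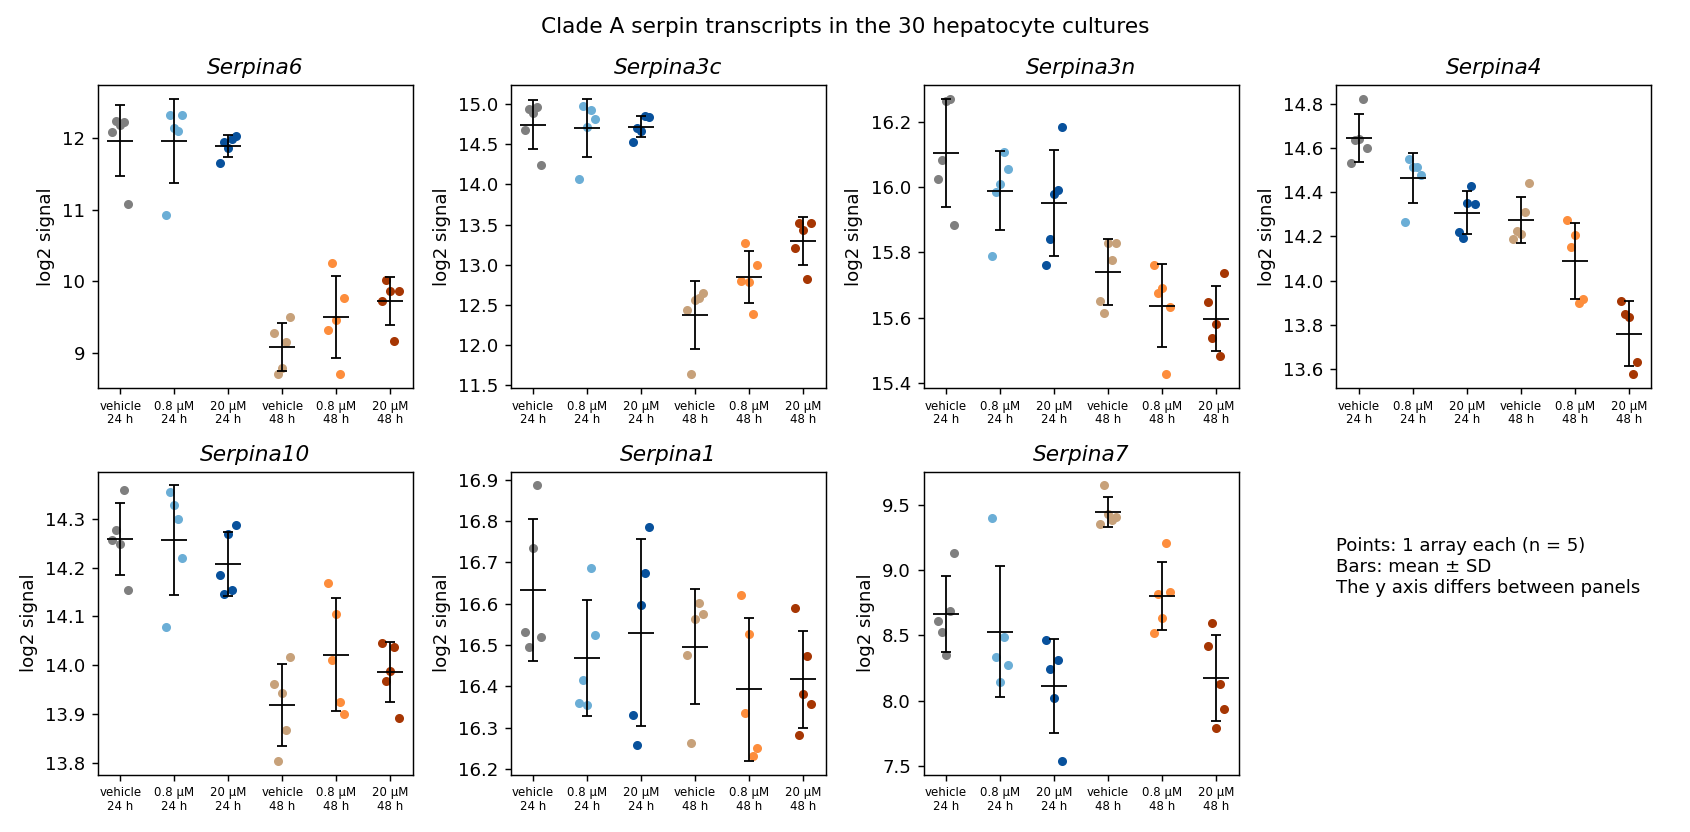
Log2 signal of each of the 7 serpin genes (y axis, scale differs between panels) in vehicle, 0.8 µM and 20 µM cultures at 24 and 48 h. Points are arrays, bars are the mean ± SD of 5 arrays. Serpina6 sits between 11.90 and 11.97 on average at 24 h and between 9.08 and 9.72 at 48 h, while Serpina7 is the gene with its highest mean, 9.45, in vehicle at 48 h.

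Serpina6 and Serpina3c fell most between 24 and 48 h at both chlorpromazine doses. The log2 changes ± SE were -2.47 ± 0.25 for Serpina6 and -1.85 ± 0.18 for Serpina3c at 0.8 µM, and -2.18 ± 0.25 and -1.42 ± 0.18 at 20 µM. Serpina3n, Serpina4 and Serpina10 fell by smaller amounts at both doses, with log2 changes between -0.22 and -0.55. Serpina1 and Serpina7 did not pass the test at either dose. At 48 h the cultures with 20 µM held more Serpina3c and Serpina6 RNA, and less Serpina4 and Serpina7 RNA, than vehicle. The vehicle arrays of that comparison are among those that chose the set, and its Serpina6 call was lost without any 1 of 7 of the 10 arrays.

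The hormone carriers come first. Serpina6 encodes corticosteroid-binding globulin, the main carrier of corticosterone in rat blood. In vehicle at 24 h its signals were 4356, 4868, 4691, 4817 and 2168. At 0.8 µM and 24 h they were 1955, 5145, 4523, 4419 and 5154. At 20 µM and 24 h they were 3218, 3966, 3725, 4082 and 4216. The 3 groups overlapped, and 1 vehicle array and 1 array at 0.8 µM stood below all the others of 24 h. In vehicle at 48 h the signals were 620, 415, 440, 568 and 723. At 0.8 µM and 48 h they were 639, 1219, 700, 417 and 873. At 20 µM and 48 h they were 843, 1031, 931, 571 and 936. Every array of 48 h was below every array of 24 h, at every dose, and the 3 groups of 48 h overlapped.

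The Serpina6 level in vehicle changed by -2.89 ± 0.25 on the log2 scale from 24 to 48 h, a 7.41-fold difference in the geometric mean and the lowest change of all 11503 genes. In the treated cultures Serpina6 fell by 2.47 ± 0.25 at 0.8 µM (limma, adjusted p = 3.949e-08, 5 arrays per group), the rank 2 place among all genes counted from the lowest. At 20 µM it fell by 2.18 ± 0.25 (adjusted p = 1.809e-07), rank 5. The change over time did not pass the test for a difference between 20 and 0.8 µM. In order of level the 3 groups of 24 h came first and within each other's spread, followed by 20 µM, 0.8 µM and vehicle at 48 h, whose neighbouring means of 9.72, 9.50 and 9.08 also lay within 1 pooled SD of each other.

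Dose effects on Serpina6 were smaller. At 24 h the log2 difference of 20 µM from vehicle was -0.07 ± 0.25 (adjusted p = 0.8905). At 48 h the 20 µM level was 0.64 ± 0.25 higher than vehicle, 1.56-fold, at an adjusted p of 0.0448 with overlapping arrays. That call was lost without any 1 of 7 of the 10 arrays: vehicle replicate 2, 3 or 4, or 20 µM replicate 1, 2, 3 or 5. The difference then lay between 0.55 and 0.66 with adjusted p between 0.06025 and 0.1184. It was also lost with no filter, without the trend, and with means over probe sets or all kept probe sets, at adjusted p between 0.05005 and 0.06762. The vehicle arrays of this comparison are among those that chose the set, so its p-values are not independent of the choice. The difference of 20 from 0.8 µM at 48 h was 0.22 ± 0.25, with a 95% interval from -0.29 to 0.74 (adjusted p = 0.5781).

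Serpina7 encodes thyroxine-binding globulin, a carrier of thyroid hormone. Its probe set was dim, above the 40th percentile of its own array on 26 of 30 arrays. It was above on 3 of 5 arrays at 20 µM and 48 h, and on 4 of 5 at 24 h with either dose. The 20 µM side of its differences thus lies near this cut. In vehicle at 24 h the signals were 391, 368, 327, 413 and 561, and in vehicle at 48 h they were 655, 805, 690, 670 and 681. The vehicle arrays of 48 h were all above those of 24 h, by 0.79 ± 0.22 on the log2 scale, opposite in sign to the other 6 genes. At 0.8 µM the signals were 676, 323, 282, 359 and 310 at 24 h and 368, 453, 397, 592 and 455 at 48 h. At 20 µM they were 354, 303, 259, 317 and 186 at 24 h and 342, 387, 221, 280 and 245 at 48 h. The treated cultures overlapped between the times. The log2 change over time was 0.28 ± 0.22 at 0.8 µM (adjusted p = 0.5649) and 0.06 ± 0.22 at 20 µM (adjusted p = 0.9218).

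At 48 h Serpina7 was 2.42-fold lower with 20 µM than in vehicle, a log2 difference of -1.27 ± 0.22 (limma, adjusted p = 1.602e-05), with no overlap of arrays. Comparisons with vehicle use arrays that chose the set, so their p-values are not independent of the choice. Serpina7 was also lower with 20 than with 0.8 µM, a contrast without vehicle arrays, with a log2 difference of -0.63 ± 0.22 (adjusted p = 0.02833, arrays overlapping). That second call was lost without 20 µM replicate 3, 4 or 5 or without 0.8 µM replicate 4, where the log2 difference lay between -0.62 and -0.53 and the adjusted p between 0.051 and 0.09379. With 0.8 µM the log2 difference from vehicle at 48 h was -0.64 ± 0.22; the arrays did not overlap, yet the adjusted p was 0.09958. At 24 h the difference of 20 µM from vehicle was -0.55 ± 0.22 (adjusted p = 0.0656), and the adjusted p was 0.04468 without 20 µM replicate 1 and 0.04794 without vehicle replicate 3. Of the 6 group means vehicle at 48 h was the highest, at 9.45, and the other 5, from 8.80 to 8.11, did not differ from their neighbours in the order by more than 1 pooled SD.

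Serpina3c, also named kallikrein-binding protein, belongs to the expanded rat Serpina3 cluster of protease inhibitors. In vehicle at 24 h its signals were 26113, 31472, 30402, 31976 and 19382. At 0.8 µM and 24 h they were 17220, 32203, 26892, 31146 and 28739. At 20 µM and 24 h they were 23677, 26607, 25965, 29601 and 29171. The groups of 24 h overlapped, and the lowest arrays were the same vehicle and 0.8 µM replicates, 5 and 1, that were lowest for Serpina6. In vehicle at 48 h the signals were 5561, 3194, 6055, 6168 and 6428. At 0.8 µM and 48 h they were 7125, 9928, 7076, 5349 and 8167. At 20 µM and 48 h they were 9493, 11747, 11041, 7223 and 11721. At 48 h every array with 20 µM was above every vehicle array, and the 0.8 µM arrays overlapped with both.

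In vehicle the Serpina3c log2 change from 24 to 48 h was -2.37 ± 0.18, 5.15-fold lower, rank 4 of 11503. It fell over the same time by 1.85 ± 0.18 at 0.8 µM (limma, adjusted p = 1.593e-08, rank 5) and by 1.42 ± 0.18 at 20 µM (adjusted p = 9.639e-07, rank 33), with no overlap in either. The difference between those 2 changes was 0.43 ± 0.25 and did not pass the test (adjusted p = 0.5602). At 48 h Serpina3c was 0.92 ± 0.18 higher with 20 µM than in vehicle, 1.90-fold (adjusted p = 0.000112). The vehicle arrays of that comparison are among those that chose the set, so its p-value is not independent of the choice. Against 0.8 µM the 20 µM level was 0.45 ± 0.18 higher with an adjusted p of 0.06237, which was 0.02009 without 20 µM replicate 4 and 0.02557 without 0.8 µM replicate 2. It was also under 0.05 with array weights (0.03168), with only the 2 groups fitted (0.03953) and without the 24 h arrays low in Serpina6 (0.02605). At 24 h the difference of 20 µM from vehicle was -0.03 ± 0.18 (adjusted p = 0.9436). The mean log2 levels at 48 h ran in the order 20 µM (13.30), 0.8 µM (12.85) and vehicle (12.38), each gap being larger than 1 pooled SD, while the 3 means of 24 h, 14.70 to 14.74, were not separated. The difference of the 20 µM effects between 48 and 24 h was 0.95 ± 0.25; it contains the vehicle change over time that chose the genes, and is given as a description.

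Serpina3n is another gene of this cluster, an acute phase inhibitor. Its signals ran from 60431 to 79043 in vehicle at 24 h and from 50123 to 58222 at 48 h, without overlap. At 0.8 µM they ran from 56655 to 70625 and then from 44048 to 55498. At 20 µM they ran from 55497 to 74415 and then from 45824 to 54565. Arrays of the 2 times did not overlap at any dose. Serpina3n fell over time by 0.35 ± 0.08 on the log2 scale at 0.8 µM (limma, adjusted p = 0.003697) and by 0.35 ± 0.08 at 20 µM (adjusted p = 0.002004), beside a log2 change of -0.37 in vehicle. The log2 differences of 20 µM from vehicle were -0.15 ± 0.08 at 24 h (adjusted p = 0.1616) and -0.14 ± 0.08 at 48 h (adjusted p = 0.164). Without 20 µM replicate 5 the 24 h difference was -0.21 with an adjusted p of 0.04657, and with quantile normalization the 48 h difference was -0.19 with an adjusted p of 0.002406.

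Serpina4 encodes kallistatin, an inhibitor of tissue kallikrein. In vehicle its signals were 23673, 25447, 25531, 28983 and 24818 at 24 h and 18680, 19161, 18963, 20304 and 22278 at 48 h. At 0.8 µM they were 19697, 24018, 23401, 23429 and 22798 at 24 h and 19790, 18179, 18902, 15281 and 15473 at 48 h. At 20 µM they were 19102, 18716, 20895, 22053 and 20846 at 24 h and 15370, 14741, 14618, 12221 and 12692 at 48 h. All arrays with 20 µM were below all vehicle arrays of the same time. The time groups overlapped at 0.8 µM, through the lowest array of 24 h, and did not overlap in vehicle or at 20 µM.

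Serpina4 was lower with 20 µM than in vehicle, with log2 differences of -0.34 ± 0.08 at 24 h (limma, adjusted p = 0.0009305) and -0.52 ± 0.08 at 48 h (adjusted p = 1.347e-06). The vehicle arrays of both comparisons chose the set, so these p-values are not independent of the choice. At 48 h Serpina4 was also lower with 20 than with 0.8 µM, at -0.33 ± 0.08 (adjusted p = 0.001008), with arrays that overlapped. The log2 differences of 0.8 µM from vehicle, -0.18 ± 0.08 at 24 h and -0.19 ± 0.08 at 48 h, did not pass (adjusted p = 0.3212 and 0.1932). Over time Serpina4 fell by 0.38 ± 0.08 at 0.8 µM (adjusted p = 0.001315) and by 0.55 ± 0.08 at 20 µM (adjusted p = 3.323e-06), beside a log2 change of -0.37 in vehicle. In order of level the 6 group means ran vehicle, 0.8 µM and 20 µM at 24 h, then vehicle, 0.8 µM and 20 µM at 48 h; the gap between 20 µM at 24 h and vehicle at 48 h, 14.31 and 14.28, was within their spread.

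Serpina10 encodes the protein Z-dependent protease inhibitor, which blocks coagulation factor Xa. Its signals ran from 18234 to 21019 in vehicle at 24 h and from 14298 to 16580 at 48 h. At 0.8 µM they ran from 17289 to 20955 and then from 15274 to 18421. At 20 µM they ran from 18121 to 19982 and then from 15196 to 16914. The 0.8 µM groups overlapped between the times and the others did not. Serpina10 fell over time by 0.24 ± 0.06 on the log2 scale at 0.8 µM (limma, adjusted p = 0.006987) and by 0.22 ± 0.06 at 20 µM (adjusted p = 0.006963), beside a log2 change of -0.34 in vehicle. The 0.8 µM call was lost when only the 2 groups compared were fitted (adjusted p = 0.06425). No comparison between doses passed for Serpina10.

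Serpina1 encodes alpha-1-antitrypsin, the plasma inhibitor of neutrophil elastase. Its probe set ranked between 17 and 36 from the brightest of 31099 on every array. Its signals ran from 92402 to 121163 in vehicle at 24 h and from 78653 to 99492 at 48 h. Across the treated groups they ran from 76870 to 113072, and all 6 groups overlapped. The log2 changes over time were -0.14 ± 0.10 in vehicle, -0.08 ± 0.10 at 0.8 µM (limma, adjusted p = 0.7622) and -0.11 ± 0.10 at 20 µM (adjusted p = 0.5583). The 95% intervals of the treated changes ran from -0.27 to 0.12 and from -0.31 to 0.08. With quantile normalization 2 values passed in addition, -0.08 for 20 µM against vehicle at 48 h (adjusted p = 0.001686) and -0.09 for the change over time at 20 µM (adjusted p = 0.001924), and the difference of 20 from 0.8 µM at 48 h turned from 0.02 to -0.06 (adjusted p = 0.01343).

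**Figure D2:**
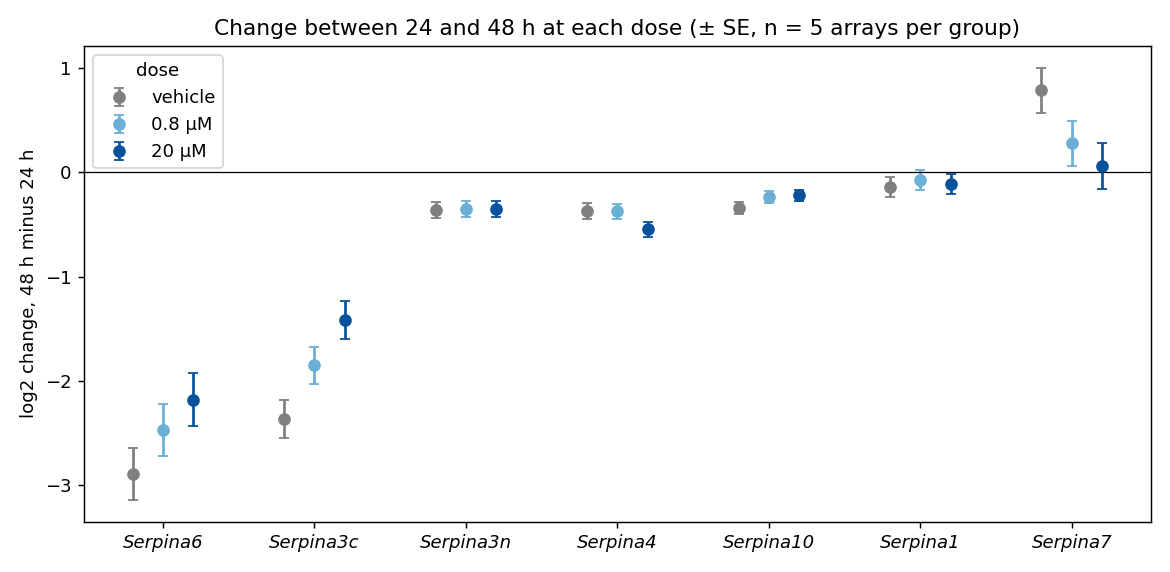
Log2 change from 24 to 48 h (y axis) for the 7 serpin genes in vehicle, 0.8 µM and 20 µM cultures. Points are differences of group means and bars their SE, with 5 arrays per group. Serpina6 (-2.89, -2.47 and -2.18) and Serpina3c (-2.37, -1.85 and -1.42) lie lowest, and Serpina7 in vehicle, at 0.79, is highest.

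Counted together, 5 of the 7 members fell between 24 and 48 h at 0.8 µM, where 2.81% of all 11503 genes fell, and 5 of 7 fell at 20 µM, where 5.36% fell: Serpina3c, Serpina3n, Serpina4, Serpina6 and Serpina10 in both. Arrays of the 2 times did not overlap for 3 of them at 0.8 µM and for all 5 at 20 µM, where this held for 2.59% and 5.16% of all genes. No member rose at either dose (limma, unadjusted p under 0.05 for 5 members at each dose, the same 5). The median log2 change of the members was -0.35 at 0.8 µM and -0.35 at 20 µM, beside -0.01 and 0.00 over all genes. In vehicle the arrays did not overlap for 5 members that were lower and 1 that was higher, where 4.54% and 4.42% of all genes were; those values chose the set and nothing is read from them. The difference of the time changes between 20 and 0.8 µM passed for 0 of 7 members (limma, 0 at an unadjusted p under 0.05), where 1.44% of genes were called. The effect of 20 µM was higher at 48 than at 24 h for 1 of 7, Serpina3c, where 1.78% of genes were; it contains the vehicle change and nothing is read from it.

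**Figure D3:**
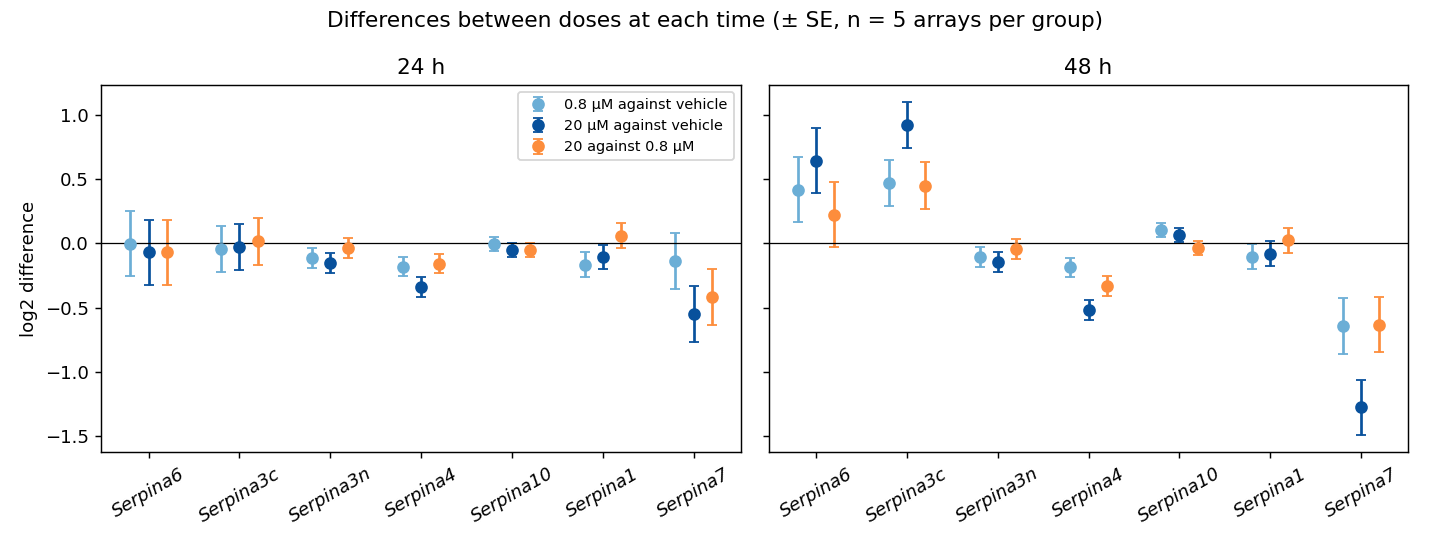
Log2 differences between doses (y axis) at 24 h and 48 h for the 7 serpin genes. Points are differences of group means and bars their SE, with 5 arrays per group. At 48 h with 20 µM against vehicle, Serpina3c (0.92) and Serpina6 (0.64) are above 0, and Serpina4 (-0.52) and Serpina7 (-1.27) below.

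Against vehicle, 20 µM changed 1 of 7 members at 24 h, Serpina4, which fell where 10.4% of genes did. At 48 h it changed 4 of 7: Serpina3c and Serpina6 were higher, where 20.3% of genes were, and Serpina4 and Serpina7 were lower, where 14.9% were. The median difference of the members was -0.10 at 24 h and -0.08 at 48 h on the log2 scale, beside 0.01 and 0.04 over all genes. With 0.8 µM, 0 of 7 members passed at either time (limma, 1 at 24 h and 3 at 48 h with an unadjusted p under 0.05), where 0.826% and 3.33% of genes were called. Fitted on the 2 groups alone, Serpina7 passed at 48 h (adjusted p = 0.03958). These comparisons share the vehicle arrays with the change over time that chose the set. Without vehicle arrays, 20 against 0.8 µM changed 0 of 7 members at 24 h (limma, 1 at an unadjusted p under 0.05), where 15.6% of genes were called. At 48 h it changed 2 of 7, Serpina4 and Serpina7, both lower, where 12.4% of genes were lower.

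Across the 30 arrays Serpina3c and Serpina6 followed each other with a Pearson r of 0.98, and of 0.88 after each group's mean was removed. Serpina10 followed Serpina6 (0.88, within groups 0.42) and Serpina3c (0.87, within groups 0.43). Serpina3n followed Serpina4 (0.84, within groups 0.60), Serpina6 (0.83, within groups 0.62), Serpina10 (0.81, within groups 0.56), Serpina3c (0.80, within groups 0.70) and Serpina1 (0.70, within groups 0.76). Serpina7 ran against Serpina3n (-0.31, within groups -0.71) and against Serpina3c (-0.59, within groups -0.54). With Serpina4 its r was 0.11, within groups -0.35. These are descriptions over arrays of 6 groups that share time, dose and the scaling of each array.

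**Figure D4:**
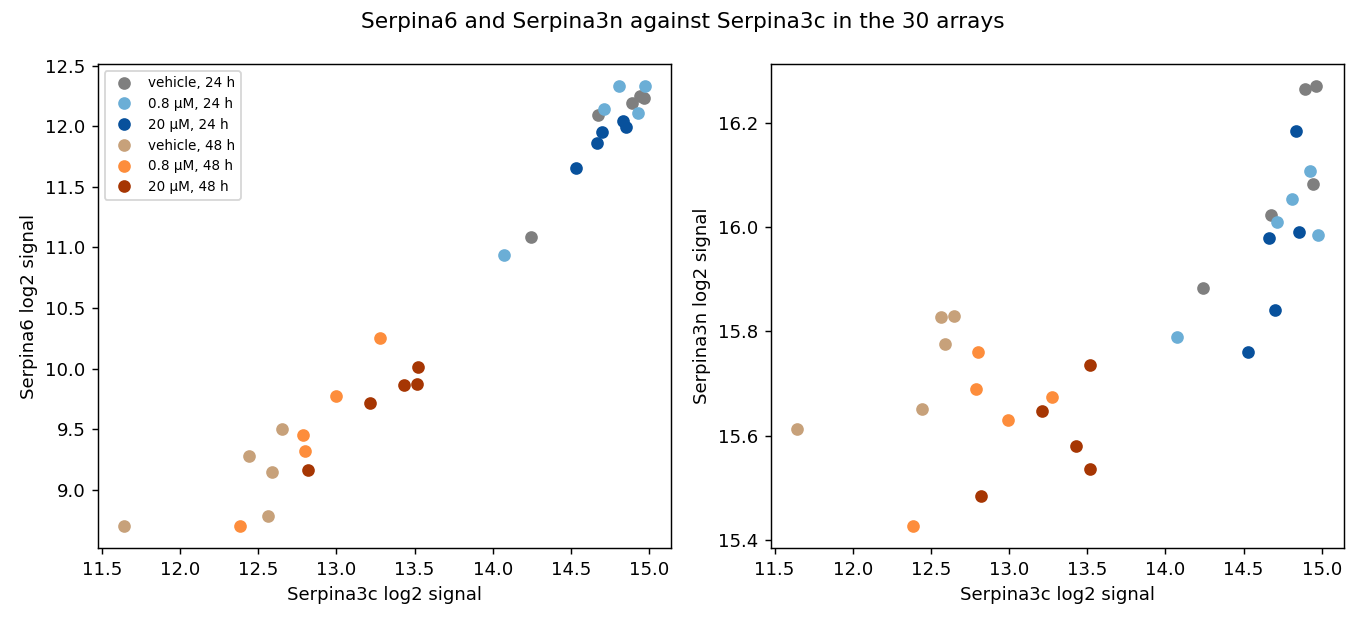
Log2 signal of Serpina6 (left) and Serpina3n (right) against that of Serpina3c in the 30 arrays, coloured by dose and time. Each point is 1 array. Serpina6 and Serpina3c lie along one line, r 0.98, with the low vehicle and 0.8 µM arrays of 24 h between the 2 times, and Serpina3n is looser, r 0.80.

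The genes closest to the standardized mean of the 7 members over the 30 arrays were Spp2 (r 0.96), Ces1c (0.95), Serpinc1 (0.94), Apoc1 (0.94) and Fgl1 (0.94). Spp2 encodes a secreted phosphoprotein, Ces1c a carboxylesterase, Serpinc1 antithrombin, Apoc1 an apolipoprotein and Fgl1 a fibrinogen-like protein of the liver. The closest gene to each single member was Serpina3l for Serpina3c (0.99) and for Serpina6 (0.97), A2m for Serpina3n (0.96), Serpina3m for Serpina4 (0.98), Pon1 for Serpina10 (0.92), Gstm1 for Serpina1 (0.98) and Asb5 for Serpina7 (0.91). Serpina3l fell over time by 1.34 at 0.8 µM and by 0.88 at 20 µM on the log2 scale. At 48 h it was higher with 20 µM than in vehicle, by 0.81 ± 0.15, and than with 0.8 µM, by 0.44 ± 0.15. Serpina3l was picked by its correlation with Serpina3c and Serpina6 over these same arrays, so its changes had to resemble theirs. Its values are a description and are read as no test. Serpina3c, Serpina3l, Serpina3m and Serpina3n are close relatives whose probes may share targets; the probe sequences were not used here, so how far their signals are separate was not tested.

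The other genes of the pathway are given by list, and where a count of 5 or fewer is spelled out by gene, the genes were named after their values were seen. For these lists the shares of all 11503 genes were 2.81% lower and 3.39% higher over time at 0.8 µM and 5.36% and 5.06% at 20 µM. With 20 µM against vehicle they were 10.4% lower and 13.4% higher at 24 h and 14.9% and 20.3% at 48 h. The list of other serpins gave 17 tested genes; Serpina3l, described above, Serpinb3 and Serpinb9b were tested too but are not on it. Between 24 and 48 h, 6 fell and 3 rose at 0.8 µM, and 8 fell and 3 rose at 20 µM, with median log2 changes of -0.19 and -0.21; the 3 that rose were Serpine2, a cell-surface inhibitor (1.61 and 1.02 at the 2 doses), Serpinb6a (0.54 and 0.59) and Serpinb9 (0.51 and 0.41). Compared with vehicle, 20 µM cultures had 7 lower and 2 higher at 24 h and 8 lower and 2 higher at 48 h, with medians of -0.23 and -0.35. The largest called differences at 48 h were Serpind1, heparin cofactor, at -1.12 ± 0.16, Serpinf2, the plasmin inhibitor, at -0.99 ± 0.07, Serpina11 at -0.89 ± 0.07, and Serpinb6a, an intracellular inhibitor, at 0.84 on the log2 scale. The other gene of the list that was higher at 48 h was Agt, angiotensinogen, at 0.33, and at 24 h Serpinb6a (0.56) and Serpine2 (0.78) were higher. Antithrombin, Serpinc1, fell over time by 0.45 at 0.8 µM and by 0.59 at 20 µM. It is also among the genes named above for their correlation with the members, so these values are a description.

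Regulators of liver secretory genes gave 15 tested genes. With 20 µM against vehicle 5 fell at 24 h and 7 at 48 h, with median log2 differences of -0.19 and -0.18. The largest called at 48 h were Foxa1 at -1.39, a pioneer factor of liver enhancers, Cebpa at -1.13, a factor of the differentiated hepatocyte, Nr2f2 at -0.64, a nuclear receptor, and Onecut1 at -0.54, a hepatocyte factor. Over time 3 fell at 0.8 µM: Hnf4a by 0.27, Cebpb by 0.17 and Il6r by 0.31. At 20 µM 4 fell: Hnf4a by 0.32, Cebpb by 0.25, Cebpa by 0.43 and Foxa1 by 0.62. No regulator rose over time (limma, 2 at 0.8 µM and 1 at 20 µM higher at an unadjusted p under 0.05).

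Steroid and thyroid hormone handling, the setting of the 2 carriers, gave 17 tested genes. Under 20 µM 5 were lower at 24 h, and 8 lower and 2 higher at 48 h, with median log2 differences of -0.16 and -0.35. The largest called at 48 h were Sult1e1, an estrogen sulfotransferase, at -2.33, Akr1d1, a steroid reductase, at -1.52, Dio3, a deiodinase that inactivates thyroid hormone, at 0.80, and Tsc22d3 at -0.76. The other gene that was higher was Sgk1, a kinase, at 0.54. Over time 1 gene fell at each dose; this was Sult1e1, with log2 changes of -0.98 at 0.8 µM (limma, adjusted p = 0.0001062) and -1.79 at 20 µM (adjusted p = 8.184e-10). Tsc22d3 had log2 changes over time of 0.09 and 0.06 that did not pass. Whether the response to glucocorticoids changed was not tested.

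Proteases and partners of the inhibitors gave 8 tested genes, of which 6 fell with 20 µM at 24 h and 6 at 48 h, with median log2 differences of -0.36 and -0.44. Klkb1, plasma prekallikrein, differed most at 48 h, at -2.67, followed by F9, a coagulation factor, at -0.73, Plg, plasminogen, at -0.70, and Proc, protein C, at -0.45. Over time 2 fell at 0.8 µM, Plg by 0.38 and Proc by 0.21, and 6 fell at 20 µM, Klkb1 by 1.13 among them. The secretory pathway that folds and exports serpins gave 19 tested genes; with 20 µM 8 were lower and 1 higher at 24 h, and 10 were lower at 48 h, with medians of -0.23 and -0.18. Its largest called genes at 48 h were Calr (-0.78), a lectin chaperone, Edem2 (-0.68), which acts in disposal of misfolded glycoproteins, Hsp90b1 (-0.48), a chaperone, and Sec24d (-0.48), a coat protein of export vesicles. Over time Pdia4 (0.19) and Uggt1 (0.29) rose at 0.8 µM, and Sec24c (-0.20), Edem2 (-0.27) and Syvn1 (-0.34) fell at 20 µM.

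Acute phase proteins gave 16 tested genes. Under 20 µM 4 were lower and 1 higher at 24 h, and 6 lower and 2 higher at 48 h, with median log2 differences of -0.12 and -0.14. The largest called at 48 h were Hamp, hepcidin, at 1.92, Lbp, which binds lipopolysaccharide, at 1.01, Crp, C-reactive protein, at -0.87, and Apcs, serum amyloid P, at -0.62. Over time 3 fell and 2 rose at 0.8 µM, and 6 fell and 1 rose at 20 µM. At 0.8 µM Crp (0.48) and Lbp (0.27) rose and C3 (-0.35) and Apcs (-0.23) fell with Hamp, and at 20 µM the gene that rose was Lbp (0.39). Hamp fell by 1.49 at 0.8 µM (limma, adjusted p = 0.0001275) and had a log2 change of -0.08 at 20 µM (adjusted p = 0.9034).

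Cell markers also moved with time. Of 7 hepatocyte markers 2 fell between 24 and 48 h at each dose, Apoa2 by 0.94 at 0.8 µM and 1.17 at 20 µM and Fabp1 by 0.36 and 1.49. Of 8 tested markers of Kupffer cells and other leukocytes, 5 fell at 0.8 µM, and 5 fell and 1, Cd68, rose at 20 µM. Clec4f, a Kupffer cell lectin, fell by 1.10 and 1.15 and C1qb by 1.16 and 1.21. In vehicle their log2 changes were -1.26 and -1.18, given as a description. The median log2 signal of the measured markers was 10.28 at 24 h and 9.46 at 48 h in vehicle. It was 10.23 and 9.44 at 0.8 µM, and 10.09 and 9.24 at 20 µM. Bright markers add most to the summed signal of this list. In vehicle that sum ran from 28574 to 30448 at 24 h and from 27702 to 30042 at 48 h. At 0.8 µM it ran from 27099 to 28914 at 24 h and from 23819 to 27273 at 48 h. At 20 µM it ran from 23408 to 27306 at 24 h and from 19168 to 21431 at 48 h, below vehicle at both times. Of 7 tested stellate cell markers Col3a1 rose at 0.8 µM, by 0.24, of 5 endothelial markers Lyve1 fell there, by 0.57, and of 2 bile duct markers Epcam rose at both doses, by 0.44 and 0.24. Their part in the serpin results was not tested.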

How the data were processed

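RNA from 30 wells was hybridised as biotin-labelled cRNA to rat oligonucleotide arrays. The authors summarised them with MAS5, per the submitters' processing notes (version not given in the sources used here), and deposited linear intensity values per probe set. Each deposited array had the same mean signal between its 2nd and 98th percentiles, 1499.94. Of 31099 probe sets, 57 were controls, 20826 had 1 gene symbol, 436 had several and 9780 were not listed.

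Values below 16 were set to 16 before taking log2, and arrays were not rescaled; 3.86% of all values lay below the floor. A probe set was kept if it exceeded the 40th percentile of its array on at least 5 arrays (21226 kept), and a gene was its kept probe set of highest mean (11503 genes). limma 3.58.1 in R 4.3.3 fitted 1 mean per group over the 30 arrays, with eBayes and a trend. It was tried on simulated data for 48 against 24 h at 20 µM, with 50 genes shifted at each size. Of these 50, 13 were called at a log2 shift of 0.3, 28 at 0.5, 43 at 1 and 47 at 2. Of all 144 calls, 13 were false. Small differences that did not pass could thus have been missed. The number of arrays, 5 per group, limits the precision.

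The members and lists were chosen with earlier results of these data known. Genes named from a list are its called genes with the largest change at 20 µM against vehicle at 48 h, up to 4, and any gene of a list of 6 or fewer; genes of like pattern are the 5 closest to the members' mean and the closest to each member. Replicate numbers are names in accession order. In each set of 6 arrays the groups came in one fixed order of array number, so place in the set and group cannot be told apart. Arrays of a set deviated together at most weakly: the mean correlation of their deviations per set ran from -0.00303 to 0.0578, beside -0.00558 for other pairs. Alternatives covered the floor, the filter, scaling, the model, the choice of probe set, the set as a block, the threshold and leaving out arrays.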

Additional observations from a re-analysis of the deposited data

Results flagged for a closer look

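In 7 of the 42 combinations of a member and a group, 1 array stood apart from the other 4 by a gap, as a share of the group's range, above Dixon's 95% critical value. For a single group chance gives this in about 1 of 20. The members share arrays and vary together within groups, so the 7 are not separate events and were not tested against that rate. In 24 h cultures at 0.8 µM, replicate 1 was the lowest for Serpina6 (gap over range 0.841), Serpina3c (0.712) and Serpina4 (0.737) and the highest for Serpina7 (0.723). In 24 h vehicle cultures, replicate 5 was the lowest for Serpina6 (0.862). In 48 h vehicle cultures, replicate 2 was the lowest for Serpina3c (0.793) and the highest for Serpina7 (0.748).

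For Serpina3c the effect of 20 µM against vehicle differed between 48 and 24 h by 0.95 ± 0.25 on the log2 scale, with 0.92 at 48 h and -0.03 at 24 h. It was singled out by the difference between the times in the fit over all genes. The contrast contains the vehicle change over time that chose the gene, so the value is a description and is read as no test.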

How the results depend on the processing

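Over 44 alternative settings, 1777 of 1820 values of a member in a comparison kept their side of the threshold. Of these, 1697 kept their sign and 80, none of them called, changed it. Another 27 lost the call, 15 gained it, and 1 changed sign and gained it. The falls over time of 5 members at each dose were the same count in all 10 fits without 1 array. With quantile normalization Serpina1 differed by -0.0633 with 20 against 0.8 µM at 48 h (adjusted p = 0.01343) in place of 0.02; the cause was not tested. In place of 0 members, 0.8 µM against vehicle at 48 h gave 1 with only the groups compared and 1 without vehicle replicate 5 and 0.8 µM replicate 1 of 24 h, a setting chosen after seeing the data. In place of 2, 20 against 0.8 µM at 48 h gave 1 at an adjusted p under 0.01, 1 to 3 without 1 array, and 3 with array weights, with only the groups compared, without those 2 arrays (Serpina3c higher in each) or with quantile normalization (Serpina1 lower). In place of 1, 20 µM against vehicle at 24 h gave 2 without those 2 arrays, and 1 to 2 without 1 array. In place of 4, 20 µM against vehicle at 48 h gave 3 to 4 without 1 array. There Serpina6 also lost its call with no filter, without the trend, with means over probe sets, with all kept probe sets and at an adjusted p under 0.01. Quantile normalization added calls for Serpina1 and Serpina3n, both lower. For the contrast of 48 h with 24 h in the 20 µM effect the count was 0 without the trend, 0 at an adjusted p under 0.01, 2 without those 2 arrays and 0 to 1 without 1 array, in place of 1. With the set of arrays as a replicate block the counts of members were the same in all 10 comparisons. They were 5 at 0.8 µM and 5 at 20 µM over time, and 4 with 20 µM against vehicle at 48 h. Over all genes the block called more in each comparison, such as 446 in place of 383 for 0.8 µM against vehicle at 48 h. Whether the sets pair the cultures was not settled.

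Over all genes, 0.8 µM against vehicle at 24 h called 95, beside 34 with median centring, 52 without the trend, 7 with only the groups compared, 60 with all kept probe sets, 11 at an adjusted p under 0.01 and 52 without those 2 arrays. At an adjusted p under 0.01 the counts were 126 in place of 383 for 0.8 µM against vehicle at 48 h, 1074 in place of 1797 for 20 against 0.8 µM at 24 h, 359 in place of 713 and 696 in place of 1198 over time at 0.8 and 20 µM, 208 in place of 484 for the difference of the 20 µM effects, and 68 in place of 166 for that of the time changes. The time change at 0.8 µM called 431 with only the groups compared. The difference of the 20 µM effects called 732 without those 2 arrays, and that of the time changes 311, and 294 with array weights. Median centring moved the higher share of calls with 20 against 0.8 µM at 24 h from 55.6% to 66.4%.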

Other observations

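Of the 11503 genes tested, 12 had a level at 48 h lower than at 24 h by more than 1 on the log2 scale at every dose. Serpina6 and Serpina3c were 2 of these 12, which were picked out after their values were seen. The rule includes the vehicle change that chose the members, so their place among the 12 is a description and is read as no test. Car3, a carbonic anhydrase, was lower by 2.46 in vehicle, and its log2 changes at 0.8 and 20 µM were -2.29 and -2.46. Cyp2c13, a cytochrome P450 of male rat liver, had changes of -2.23, -2.20 and -2.41 in the same order. Gstp3, a glutathione transferase, had changes of -2.07, -2.69 and -2.03. Cyp2c7 and Cyp3a2, also cytochromes P450, were at -1.34, -1.41 and -1.52 and at -1.25, -1.35 and -1.86. The set also held the macrophage genes Clec4f and C1qb, and Lilrb4, Mfap5 and Spink1l.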
